A study of Mus musculus with 32 samples.

Results

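The comparison set ES cells whose CTCF lacks zinc finger 8 (d8 lines) against the GFP-CTCF line with a matching level of Ctcf RNA (GC line 2). For RNA it used 11 of the 32 samples of the series, all RNA-seq libraries. CTCF peak lists of 2 ChIP samples of the series, labelled GC and Del8, were also read. No line is recorded for these 2, so their peaks cannot be assigned to GC line 2 or to a given d8 line. The labels of genotype and line gave the groups, and of the 2 GFP-CTCF lines GC line 2 was taken because its measured Ctcf RNA was near that of the d8 lines. The 8 d8 libraries came from 3 lines (3 samples each of d8 line 1 and d8 line 2, and 2 of d8 line 3), and their genotype is labelled GFP-CTCF-Del8. The 3 GC line 2 libraries carry the genotype label GFP-CTCF. All are mouse ES cells of strain 129, and no drug, differentiation step or time point is given in the labels. The GFP tag is named in both genotypes, so it is shared by the compared cells. The other GFP-CTCF line, GC line 1, had less Ctcf RNA and did not enter the comparison, and its 3 libraries are given only as side values. GC line 2 is a single line, so what belongs to that line and what belongs to its genotype cannot be told apart here.

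CTCF is a DNA-binding protein with a row of zinc fingers. The central fingers read a conserved core sequence, and the outer fingers contact the flanks of the site or stabilise binding. Bound CTCF stops the cohesin ring as it extrudes DNA, which forms loop anchors and domain borders, and CTCF also binds close to the start sites of many genes. ES cells without CTCF do not grow, so cells that carry a mutant protein are a usual way to ask what a single finger contributes.

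Levels were read as RPKM, reads normalised to exon length and library size, and a gene was tested where its mean was at least 1 RPKM on either side. Of the 24940 genes in the table, 12456 were tested. Genes on chromosomes 11 and 16 were fitted with the others but are not members, which left 11015 genes, while 11278 genes outside these chromosomes were under the filter. The test was limma on line means of log2(RPKM + 1), 3 d8 lines against 1 GC line, with Benjamini-Hochberg adjustment over all 12456 genes and a threshold of 0.05. The lone GC line is assumed to vary as the d8 lines do. A log2 difference is d8 minus GC line 2, and a negative one means lower in the d8 lines.

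In the d8 lines the RNA of the apoptosis gene Bak1, the muscle actin gene Acta1, the phosphatase gene Ocrl and the mitochondrial genes Bola3, Got2 and Gfm1 fell. Their line means were 3.83-fold (Gfm1) to 28.3-fold (Bak1) higher in GC line 2. Fewer genes rose, led by Ccdc136 at 3.34-fold and Dennd5b at 3.11-fold higher in the d8 lines. In total, 20 genes passed the test, 16 lower and 4 higher in the d8 lines, which is 0.182% of the 11015 members in either direction, 0.145% lower and 0.0363% higher. For all 20 the 8 d8 libraries lay entirely below or entirely above the 3 GC line 2 libraries, which held for 17.4% of all members. The calls were made on the same values, so this describes them and adds no separate support. Without an adjustment for multiple testing, 2052 members (18.6%) had a p of at most 0.05, 1090 (9.9%) higher and 962 (8.73%) lower. Leaving chromosomes 11 and 16 out of the fit as well as out of the members kept 7 of the 20 calls, those of Bak1, Acta1, Bola3, Ocrl, Arl14epl, Got2 and Gfm1, with adjusted p of 0.017 to 0.019. The other 13 then had adjusted p of 0.061 to 0.067. The call count also rested on single lines: without d8 line 2 or without d8 line 3 no gene passed, while 2170 and 1517 members then had an unadjusted p of at most 0.05.

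Of the 16 genes that fell, 10 had a CTCF peak of GFP-CTCF cells within 1 kb of their start site. The promoters of 4 of them are shown as examples, and in each the match to the CTCF core sequence lies under the peak. Each runs from 250 bases before to 50 bases after the RefSeq start site (build GRCm38.p6), 5′ to 3′ on the gene's strand, with the best match to the CTCF core motif in capitals. The motif has 14 positions, several of which allow more than 1 base, and both strands were searched. Ocrl lies on the plus strand with its window at chrX:47912206-47912505, and Gfm1 on the plus strand at chr3:67429865-67430164. Bak1 lies on the minus strand with its window at chr17:27028578-27028877, and Got2 on the minus strand at chr8:95888352-95888651.
Ocrl: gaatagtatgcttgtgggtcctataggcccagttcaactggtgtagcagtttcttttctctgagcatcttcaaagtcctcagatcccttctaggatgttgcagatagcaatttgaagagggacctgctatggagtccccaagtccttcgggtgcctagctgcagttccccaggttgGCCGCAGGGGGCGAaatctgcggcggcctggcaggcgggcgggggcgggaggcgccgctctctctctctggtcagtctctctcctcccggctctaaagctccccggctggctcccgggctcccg
Gfm1: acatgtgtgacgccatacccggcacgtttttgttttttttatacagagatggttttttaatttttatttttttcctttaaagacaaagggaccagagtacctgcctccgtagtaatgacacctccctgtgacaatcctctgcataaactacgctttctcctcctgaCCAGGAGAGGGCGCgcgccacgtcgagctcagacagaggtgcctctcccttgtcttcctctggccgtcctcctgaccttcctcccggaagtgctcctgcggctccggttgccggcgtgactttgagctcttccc
Bak1: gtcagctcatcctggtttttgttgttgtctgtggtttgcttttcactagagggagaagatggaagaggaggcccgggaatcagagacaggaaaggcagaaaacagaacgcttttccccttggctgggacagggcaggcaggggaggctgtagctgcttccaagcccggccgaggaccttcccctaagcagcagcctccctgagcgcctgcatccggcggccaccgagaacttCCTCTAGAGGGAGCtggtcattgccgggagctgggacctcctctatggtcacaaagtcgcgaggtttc
Got2: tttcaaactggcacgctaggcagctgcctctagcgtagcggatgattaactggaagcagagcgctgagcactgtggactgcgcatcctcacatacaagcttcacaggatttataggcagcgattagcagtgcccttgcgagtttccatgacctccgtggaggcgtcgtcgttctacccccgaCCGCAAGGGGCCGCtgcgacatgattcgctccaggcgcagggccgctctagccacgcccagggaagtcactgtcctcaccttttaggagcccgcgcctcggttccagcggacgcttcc

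The Gfm1 match fitted 13 of the 14 motif positions, the Bak1 match 12, and the Ocrl and Got2 matches 11 each. Of 32841 RefSeq promoter windows of the same length, 2.28% held a match of at least 13 positions, 14.4% of at least 12 and 58.1% of at least 11, so a match of 11 positions is common. The matches lay 7 bp (Gfm1), 22 bp (Got2), 9 bp (Ocrl) and 12 bp (Bak1) from the centre of the GC peak. Bola3, Mipep and Krtcap2 also had the peak centre inside the window, with matches of 12, 11 and 13 positions. In all 7 windows the match lay 7 to 28 bp from the centre, and the coding strand held the better match. Among the 539 tested members with a peak centre in their window, 57.1% had the match within 30 bp. In 300 of them (55.7%) the coding strand held the better match, in 132 the other strand did, and in 107 both were equal. A match is a description of letters and not a site. Windows were found for 15 of the 20 genes.

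Bak1 encodes a protein of the BCL2 family that forms pores in the outer mitochondrial membrane during apoptosis. Its 8 d8 libraries held 0.216, 0.429 and 0.715 RPKM (lowest, median and highest), against 15.9, 12.9 and 8.89 RPKM in GC line 2. The d8 lines were low in every library, and the groups lay far apart. The line mean was 0.445 ± 0.132 RPKM in d8 cells (SD, n = 3 lines) and 12.6 RPKM in GC line 2, which is 28.3-fold higher in GC line 2. On the log2(RPKM + 1) scale the difference was -3.21 (SE 0.18, limma adjusted p = 0.016). GC line 1 lay between them with a mean of 2.76 RPKM. Bak1 (chr17:27019812-27028627) overlaps Ggnbp1 on the opposite strand, and no strand setting is named for the counting, so reads of the 2 genes cannot be told apart. The peak at its start site, 23 bp away, was overlapped by a Del8 peak.

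Gfm1 (chr3:67430115-67475068) encodes a mitochondrial translation elongation factor. The d8 libraries held 9.56, 10.3 and 11.3 RPKM (lowest, median and highest), against 41.8, 41.6 and 35.7 RPKM in GC line 2. The 8 d8 libraries were nearly level, and GC line 1 with 38.7 RPKM stood with GC line 2. This gave a difference of -1.84 on the log2 scale (SE 0.11, limma adjusted p = 0.016). Gfm1 overlaps Lxn on the opposite strand, with the same limit on strand. Its start site had a GC peak 84 bp away that a Del8 peak overlapped.

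Got2 (chr8:95864137-95888365) encodes the mitochondrial aspartate aminotransferase of the malate-aspartate shuttle. It had 9.76, 13.5 and 15.6 RPKM in d8 libraries (lowest, median and highest), against 58.9, 63.8 and 46.7 RPKM in GC line 2. The lines averaged 13.5 ± 1.32 RPKM in d8 cells (SD, n = 3 lines), and GC line 1 averaged 54.3 RPKM. All d8 libraries stood far below both GC lines, with a log2 difference of -1.99 (SE 0.13, limma adjusted p = 0.018). A Del8 peak overlapped the GC peak 119 bp from its start site.

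Ocrl (chrX:47912456-47965866) encodes an inositol polyphosphate 5-phosphatase, the gene mutated in human Lowe syndrome. The d8 libraries held 0.445, 0.56 and 0.837 RPKM (lowest, median and highest), against 7.11, 8.02 and 7.25 RPKM in GC line 2. The libraries of each side were tightly grouped, and GC line 1 averaged 7.35 RPKM. On the log2 scale Ocrl differed by -2.40 (SE 0.16, limma adjusted p = 0.018). The GC peak 58 bp from its start site had no overlapping Del8 peak.

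Bola3 takes part in the supply of iron-sulfur clusters in mitochondria. Its d8 libraries held 0.49, 0.835 and 1.04 RPKM (lowest, median and highest), against 9.51, 11.3 and 6.06 RPKM in GC line 2. The groups were apart by more than the whole d8 range, although 1 d8 library rested on 4 reads. The log2 difference was -2.42 (SE 0.16, limma adjusted p = 0.018), GC line 1 averaged 6.95 RPKM, and the GC peak 97 bp from the start site had an overlapping Del8 peak.

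The other 5 genes with a promoter peak fell as well. Mipep encodes a peptidase that trims proteins imported into mitochondria. It had 1.03, 1.51 and 2.02 RPKM in d8 libraries (lowest, median and highest), against 8.96, 9.53 and 6.99 RPKM in GC line 2 (-1.92 on the log2 scale, SE 0.19, limma adjusted p = 0.043). Ndufaf3, an assembly factor of respiratory complex I, had 1.09, 1.41 and 1.63 RPKM in d8 libraries, against 7.76, 7.74 and 4.86 RPKM in GC line 2 (-1.67, SE 0.16, limma adjusted p = 0.043). In both genes the highest d8 library was well below the lowest GC line 2 library. Krtcap2, a subunit of the oligosaccharyltransferase that adds N-glycans in the endoplasmic reticulum, had 10.2, 18.2 and 24.2 RPKM in d8 libraries, against 66.3, 55.5 and 38.5 RPKM in GC line 2 (-1.58, SE 0.16, limma adjusted p = 0.043). Peaks of both ChIP libraries overlapped at these 3 start sites.

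Tstd3 and Col1a2 had a GC peak with no overlapping Del8 peak, 10 bp and 668 bp from the start site. Tstd3, which encodes a protein with a rhodanese-type domain, had 0.196, 0.601 and 0.731 RPKM in d8 libraries (lowest, median and highest), against 4.49, 4.53 and 3.83 RPKM in GC line 2 (-1.76, SE 0.18, limma adjusted p = 0.043). Its lowest d8 value rested on 5 reads. Col1a2, an alpha chain of type I collagen, had 0.05, 0.223 and 0.494 RPKM in d8 libraries, against 2.02, 1.64 and 11.2 RPKM in GC line 2. Sample C of GC line 2 stood far above the other 2. The log2 difference was -1.91 (SE 0.20, limma adjusted p = 0.048), and without sample C it was -1.20 with an adjusted p of 0.087. Without that library Rhox9 (limma adjusted p = 0.064), Aif1l (0.062) and Ctsl (0.055) also lost their calls, and 16 of the 20 genes kept theirs.

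**Figure D1:**
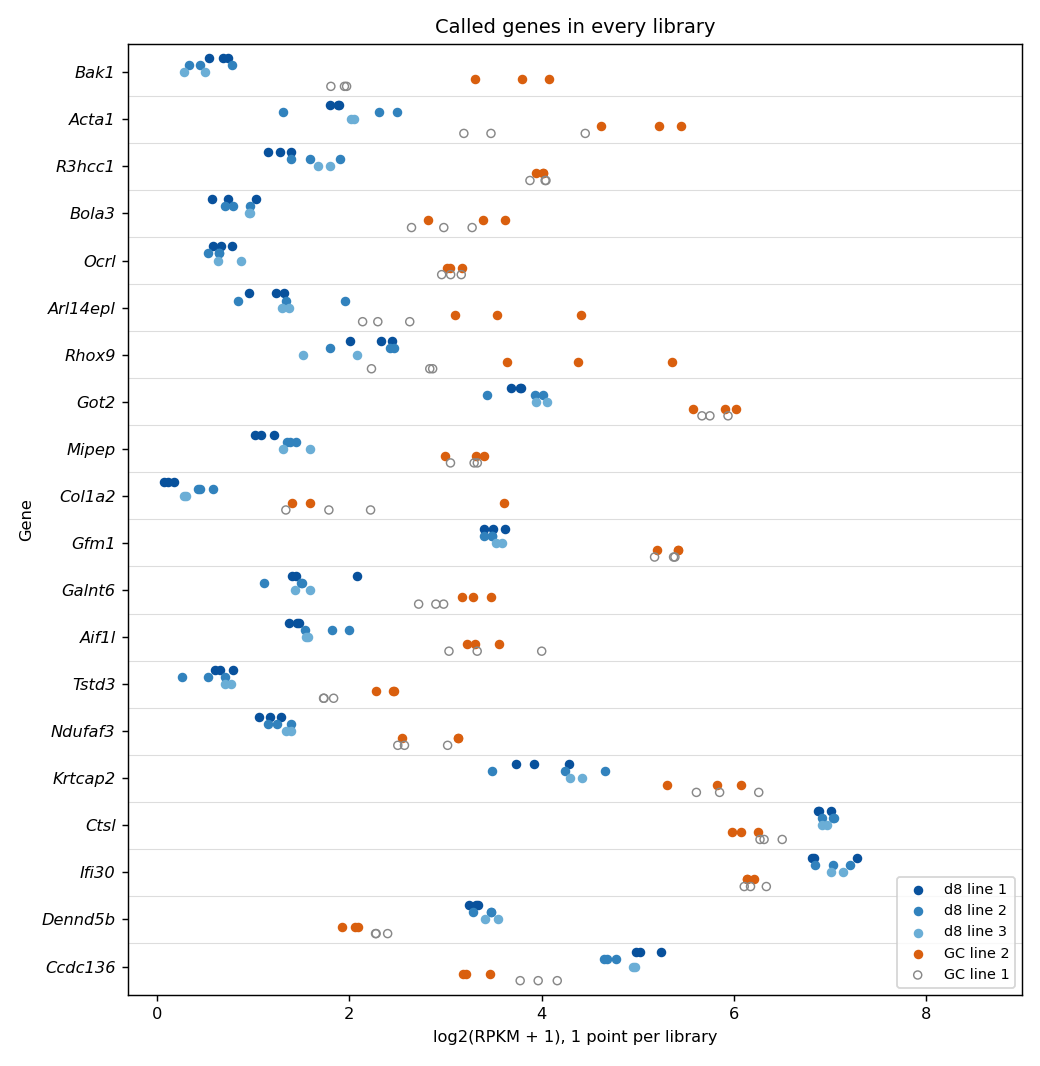
Each point is 1 library of a called gene on a log2(RPKM + 1) axis, with the 3 d8 lines in blue, GC line 2 in orange and GC line 1 as open grey circles. For all 20 genes the 8 d8 points do not overlap the 3 orange points. The grey circles of Bak1, Acta1, Arl14epl, Galnt6, Tstd3, Ccdc136, Dennd5b and Ctsl lie between both.

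The 6 other genes that fell had no GC peak within 1 kb. Acta1, the actin of skeletal muscle, had 1.47, 2.88 and 4.64 RPKM in d8 libraries (lowest, median and highest), against 23.5, 42.8 and 36.4 RPKM in GC line 2. It was low in all 3 d8 lines, and GC line 1 lay between the sides with a mean of 13.1 RPKM. This was a log2 difference of -3.12 (SE 0.15, limma adjusted p = 0.016). R3hcc1, a gene named for its R3H domain, had 1.23, 1.83 and 2.73 RPKM in d8 libraries, against 15.1, 14.4 and 15.1 RPKM in GC line 2, with 14.9 RPKM in GC line 1 (-2.44, SE 0.22, limma adjusted p = 0.043). Its nearest GC peak was 7.22 kb from the start site. Galnt6, an enzyme that starts mucin-type O-glycans, had 1.16, 1.77 and 3.23 RPKM in d8 libraries, against 8.74, 8.01 and 10.1 RPKM in GC line 2 (-1.80, SE 0.17, limma adjusted p = 0.043). A GC peak without a Del8 peak lay 1.65 kb from its start site. Aif1l, a relative of the actin-binding protein Aif1, had 1.59, 1.91 and 2.99 RPKM in d8 libraries, against 8.36, 8.88 and 10.8 RPKM in GC line 2 (-1.77, SE 0.19, limma adjusted p = 0.049).

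Arl14epl and Rhox9 varied among the GC samples. Rhox9, a homeobox gene of the Rhox cluster on the X chromosome that is expressed in reproductive tissues, had 1.86, 3.63 and 4.53 RPKM in d8 libraries (lowest, median and highest), against 11.5, 19.8 and 39.9 RPKM in GC line 2. The 3 GC line 2 samples spread more than 3-fold, and GC line 1 with 5.37 RPKM lay near the d8 lines. The log2 difference was -2.36 (SE 0.22, limma adjusted p = 0.043). With GC line 1 added to the fit it was -1.46 with an adjusted p of 0.11, and Rhox9 was the only one of the 20 genes to lose its call there. Arl14epl had 0.797, 1.48 and 2.88 RPKM in d8 libraries, against 7.59, 10.6 and 20.3 RPKM in GC line 2, with 4.16 RPKM in GC line 1 (-2.39, SE 0.16, limma adjusted p = 0.018). In the authors' deposited table Arl14epl has a log2 fold change of 0.722, which is opposite in sign.

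The 4 genes that rose had log2 differences of 0.85 to 1.63. Ccdc136, which encodes a coiled-coil protein, had 24.1, 30.1 and 36.8 RPKM in d8 libraries (lowest, median and highest), against 8.09, 8.27 and 10.0 RPKM in GC line 2, and GC line 1 had 14.7 RPKM. All d8 libraries stood above both GC lines, by 1.63 on the log2 scale for GC line 2 (SE 0.16, limma adjusted p = 0.043). Dennd5b, a DENN domain protein of the kind that activates Rab GTPases, had 8.45, 9.38 and 10.7 RPKM in d8 libraries, against 2.8, 3.15 and 3.27 RPKM in GC line 2 (1.37, SE 0.14, limma adjusted p = 0.043). Ctsl, the lysosomal protease cathepsin L, had 116, 122 and 131 RPKM in d8 libraries, against 66.5, 75.3 and 62.2 RPKM in GC line 2 (0.85, SE 0.08, limma adjusted p = 0.043). Ifi30, a thiol reductase of lysosomes, had 111, 129 and 154 RPKM in d8 libraries, against 69.3, 69.2 and 72.7 RPKM in GC line 2 (0.87, SE 0.08, limma adjusted p = 0.043). Both lysosomal genes were abundant and rose by less than 2-fold. GC line 1 had 3.98 RPKM of Dennd5b, 81.4 RPKM of Ctsl and 72.9 RPKM of Ifi30, each on the side of GC line 2.

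**Figure D2:**
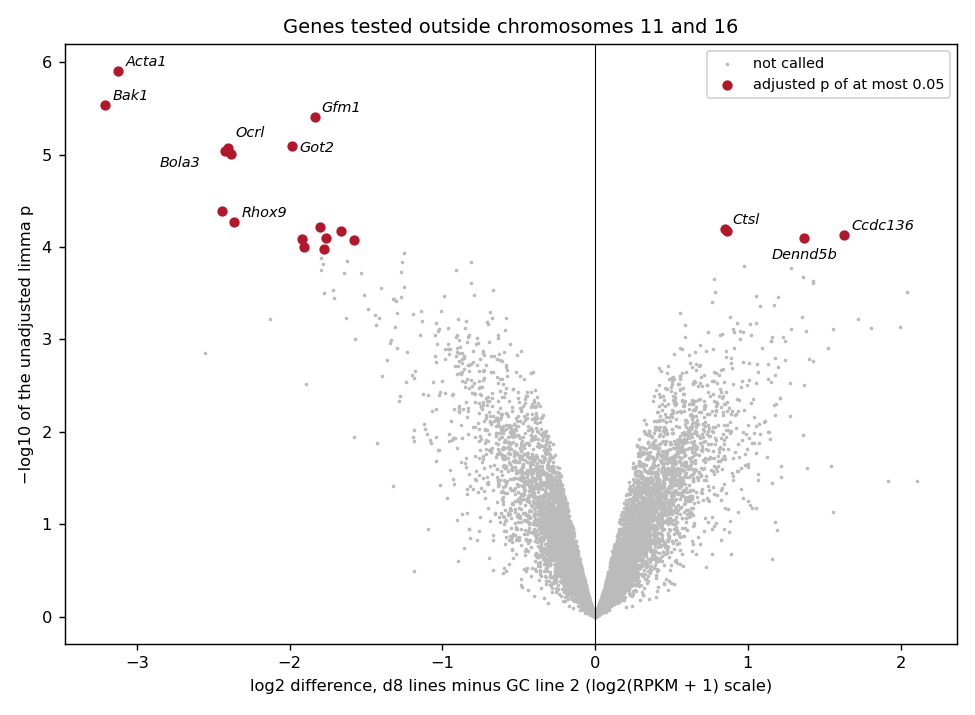
Each point is 1 of the 11015 genes tested outside chromosomes 11 and 16, with the log2 difference of the d8 lines minus GC line 2 on the x axis and the negative log10 of the unadjusted limma p on the y axis. The 16 called genes on the left fall by 1.58 (Krtcap2) to 3.21 (Bak1) on the log2 scale, and the 4 called genes on the right rise by 0.85 (Ctsl) to 1.63 (Ccdc136).

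The Ctcf RNA level chose GC line 2, so it is given as a description with no test. The d8 libraries held 23.2, 31.5 and 37.2 RPKM (lowest, median and highest), against 30.5, 30.8 and 22.9 RPKM in GC line 2. The groups overlapped, and the log2 difference was 0.18. GC line 1 averaged 5.93 RPKM. A level summed over the whole gene does not show the deletion of 1 finger, so it does not check the labels. Among the called genes GC line 1 stood near GC line 2 for some, such as Gfm1 with 38.7 RPKM in GC line 1 and 39.7 RPKM in GC line 2. For Bak1, Acta1, Arl14epl and Rhox9 it was far below GC line 2, with 2.76, 13.1, 4.16 and 5.37 RPKM in GC line 1, against 12.6, 34.3, 12.8 and 23.7 RPKM in GC line 2.

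The libraries were of similar depth, with 14.3 to 16.68 M reads estimated from the steps of the RPKM values, of which 11.99 to 14.1 M lay in genes. All chromosomes but 11 and 16 had a median log2 difference of -0.0249 to 0.0686. On chromosome 11 the median of 1058 genes was -0.341 and 84.8% of the genes were lower in the d8 lines, with -0.387, -0.286 and -0.352 in d8 lines 1, 2 and 3. Chromosome 16 had a median of -0.195 over 383 genes, with -0.222, -0.171 and -0.177 in the 3 d8 lines. GC line 1 minus GC line 2 was -0.202 on chromosome 16, so there GC line 2 stood above every other line. On chromosome 11 that difference was 0.102, so both GC lines were above the d8 lines and the shift was not particular to GC line 2. On chromosome 11, 7 genes passed the test, all lower in the d8 lines, and they are not described here.

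**Figure D3:**
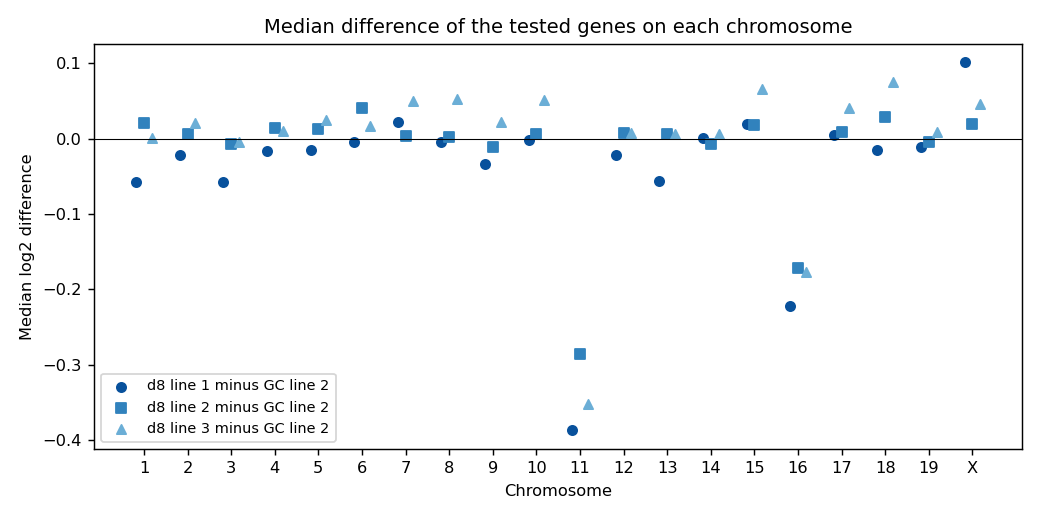
Each point is the median log2 difference of the tested genes of 1 chromosome, for each d8 line minus GC line 2. All 3 d8 lines lie between -0.387 and -0.286 on chromosome 11 and between -0.222 and -0.171 on chromosome 16, and the other chromosomes lie near 0.

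Within 2 Mb of each gene, 8 to 112 other tested genes had a median log2 difference of -0.24 (Tstd3) to 0.11 (Col1a2). The Bak1 neighbours, 85 genes, had a median of 0.039, and the Gfm1 neighbours, 13 genes, lay at 0.000023.

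Promoter CTCF peaks were counted for the called genes and for all members. The Del8 list held 15546 peaks and the GC list 26729, each from 1 ChIP library, called from 5.59 M and 8.09 M tags, so the Del8 library was the shallower one. Of the GC peaks 42% had an overlapping Del8 peak. Among the 16 genes that fell, 10 (62.5%) had a GC peak centre within 1 kb of the start site, against 0 of the 4 that rose and 1527 of 11015 members (13.9%). Of the 10, 3 (30%) had no Del8 peak over the GC peak, and of the 1527 members 643 (42.1%) had none. The other 7 kept an overlapping Del8 peak. The part of the lower Del8 depth in the missing Del8 peaks was not tested. Within 5 kb the counts were 11 of 16 (68.8%) and 30.5% of members. Of the 16 start sites 8 lay within 150 bp of a GC peak centre, against 5.37% of members, and their median distance was 0.226 kb against 12.2 kb.

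**Figure D4:**
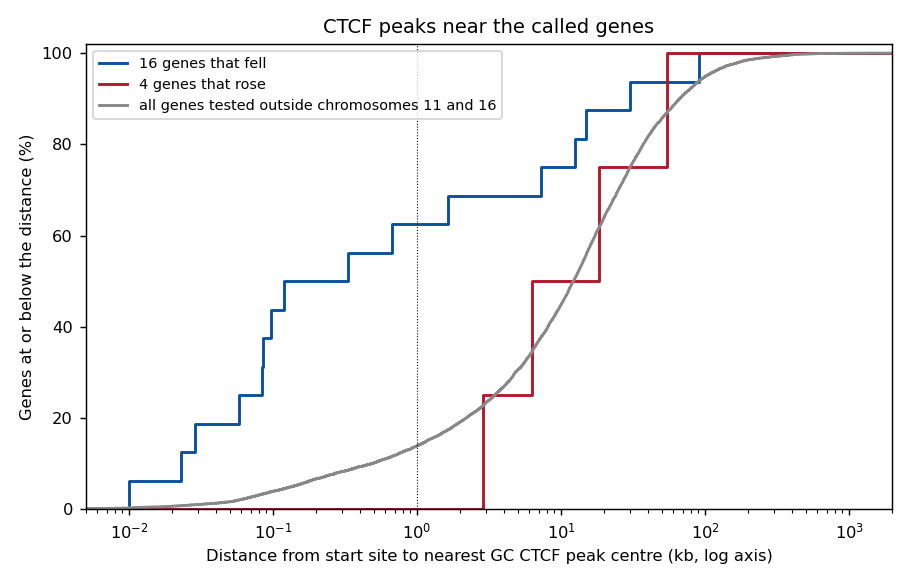
The curves give the share of genes whose start site lies at or below a distance, in kb on a log axis, from the nearest GC CTCF peak centre, and the dotted line is at 1 kb. At 1 kb the curve of the 16 genes that fell is at 62.5%, that of the 4 genes that rose at 0% and that of all 11015 members at 13.9%.

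Log2 differences of at least 1 were counted by the state of the promoter peak. Of the 884 members whose promoter GC peak had a Del8 peak, 21 (2.38%) were lower by at least 1 on the log2 scale and 6 (0.679%) higher by as much. For the 643 members whose peak had no Del8 overlap, the counts were 13 (2.02%) and 3 (0.467%). The 9488 members with no promoter GC peak had 62 (0.653%) and 80 (0.843%). The median log2 differences of these groups were -0.03, -0.019 and 0.013, beside 0.0075 for all members.

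Genes without a call but with groups that did not overlap are given as values. In 942 members (8.55%) all d8 libraries were above GC line 2, and in 978 (8.88%) all were below, 17.4% in all. S100a6, a calcium-binding protein, had the largest difference among the low ones, with 3.13, 7.14 and 10.8 RPKM in d8 libraries (lowest, median and highest), against 38.2, 32.2 and 61.4 RPKM in GC line 2 (-2.56, limma adjusted p = 0.071). The d8 lines spread among themselves, from a mean of 3.62 RPKM in d8 line 1 to 9.77 RPKM in d8 line 2. Its start site had a GC peak without a Del8 peak 61 bp away. Rhox6, a neighbour of Rhox9, had a mean of 4.97 RPKM over the d8 lines and 26.7 RPKM in GC line 2, a log2 difference of -2.13, with 6.83 RPKM in GC line 1. Kit, the receptor of stem cell factor, had 1.6, 2.89 and 3.87 RPKM in d8 libraries, against 8.57, 11.5 and 17.9 RPKM in GC line 2 (-1.79, limma adjusted p = 0.053). Cyct (-1.90), Slc35b2 (-1.78), B3glct (-1.72) and 2010204K13Rik (-1.71) were also among the 8 lowest, with limma adjusted p of 0.059 to 0.082. Slc35b2, a transporter of the sulfate donor PAPS, and 2010204K13Rik had overlapping promoter peaks in both ChIP libraries. B3glct, a glucosyltransferase, had a GC peak 70 bp away without Del8 overlap, but a separate Del8 peak lay within 1 kb of its start site.

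Srgn (2.11), Gpx2 (2.04), Gata4 (1.72), Glrx (1.56), Cthrc1 (1.43), Ftx (1.40) and Tex15 (1.38) were among the 8 highest without a call, and none of them had a GC peak within 1 kb. Gpx2, a glutathione peroxidase, had 25.4, 39.8 and 71.3 RPKM in d8 libraries (lowest, median and highest), against 11.5, 10.6 and 6.49 RPKM in GC line 2 (limma adjusted p = 0.059). Srgn, a proteoglycan core protein, differed among the d8 lines, with 1.63, 10.3 and 5.54 RPKM in lines 1, 2 and 3 and 0.289 RPKM in GC line 2 (limma adjusted p = 0.19). Ftx is a noncoding RNA of the region around Xist.

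The X-inactivation centre list had 7 tested genes, all with a positive difference and none called. In 5 of the 7 the d8 libraries were all higher (8.55% of all members), 6 were higher at an unadjusted p of at most 0.05 (9.9% of all members), and the median log2 difference was 0.61, against 0.0075 over all members. Tsix is named here after its values were seen. Tsix, the antisense partner of Xist, had 3.43, 5.36 and 6.71 RPKM in d8 libraries, against 2.29, 1.85 and 1.99 RPKM in GC line 2. Xist and Tsix overlap, so their reads cannot be told apart without strand. Rlim, an E3 ligase of the same region and the most abundant of the list, had a log2 difference of 0.39 (limma adjusted p = 0.22), and its groups overlapped.

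The state of the ES cells was read from lists of marker genes. Core pluripotency genes were present in every library, and none of the 13 tested passed the test (8 positive, 5 negative, median log2 difference 0.051). At an unadjusted p of at most 0.05, 1 was higher and 1 lower (9.9% and 8.73% of all members). Pou5f1, the pluripotency factor Oct4, had 538, 582 and 610 RPKM in d8 libraries (lowest, median and highest), against 567, 538 and 471 RPKM in GC line 2. Dppa5a, an ES cell RNA-binding protein, had 363, 506 and 590 RPKM in d8 libraries, against 457, 496 and 697 RPKM in GC line 2. In both genes the groups overlapped. Without overlap 1 of the 13 core genes was higher and 1 lower, against 8.55% and 8.88% of all members. The lower one was Nanog, picked out here after its values were seen. Nanog had 38.9, 55.8 and 74.3 RPKM in d8 libraries, against 117, 122 and 191 RPKM in GC line 2 (-1.36, limma adjusted p = 0.074).

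Naive pluripotency genes had a median of -0.43 over 13 genes, with 10 negative and 3 positive and no call. At an unadjusted p of at most 0.05, 2 were higher and 3 lower (9.9% and 8.73% of all members). The 2 naive genes without overlap were both higher in the d8 lines, where 8.55% of all members were higher without overlap. They were Tbx3 (1.06, limma adjusted p = 0.076) and Gbx2 (0.60, limma adjusted p = 0.12), named here after their values were seen. The 12 formative and primed genes were all positive with a median of 0.75 and no call. Of these, 9 were higher at an unadjusted p of at most 0.05 (9.9% of all members). Without overlap 1 was higher (8.55% of all members). Klf2, a naive factor, had 46.6, 62.6 and 84.4 RPKM in d8 libraries, against 80.5, 94.9 and 101 RPKM in GC line 2, and Dppa3 had a log2 difference of -0.24 (limma adjusted p = 0.52). In the formative list Otx2 had 27.8, 62.1 and 79.6 RPKM in d8 libraries, against 34.9, 39.5 and 11.5 RPKM in GC line 2. Dnmt3b, a de novo DNA methyltransferase, had 207, 315 and 351 RPKM in d8 libraries, against 252, 236 and 111 RPKM in GC line 2. The groups overlapped for Klf2, Dppa3, Otx2 and Dnmt3b, and for Otx2 and Dnmt3b GC line 2 sample C was the lowest of all libraries.

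Primitive endoderm genes, the 13 tested, all had positive differences with a median of 0.85, and 6 of them were higher without overlap, against 8.55% of all members. None passed the test, and 5 were higher at an unadjusted p of at most 0.05, against 9.9% of all members. Apoe, an apolipoprotein, had 558, 723 and 1210 RPKM in d8 libraries (lowest, median and highest), against 443, 491 and 367 RPKM in GC line 2. Lamc1, a laminin chain, had 50.7, 55.1 and 97.6 RPKM in d8 libraries, against 54.0, 50.2 and 59.0 RPKM in GC line 2. Apoe stood above GC line 2 in all d8 libraries, while Lamc1 overlapped it. Gata4, a defining factor of this cell type, had 4.26, 6.18 and 10.0 RPKM in d8 libraries, against 1.71, 1.24 and 0.847 RPKM in GC line 2. In bulk RNA, more cells of a type and more RNA per cell cannot be told apart.

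Fibroblast and feeder genes are set beside Col1a2 and Acta1. Of 12 tested, 1 was called (Col1a2, lower, against 0.145% of all members), and 8 were negative and 4 positive. At an unadjusted p of at most 0.05, 8 were lower and 0 higher (8.73% and 9.9% of all members). Without overlap 6 were lower (8.88% of all members), and the median was -0.76. Over all 16 genes listed the summed level was 226 to 302 RPKM in d8 libraries, against 407 to 461 RPKM in GC line 2, with a range of 313 to 825 RPKM in GC line 1, and none was at 0 in all 11 libraries. Fn1, fibronectin, had 100, 131 and 156 RPKM in d8 libraries (lowest, median and highest), against 166, 195 and 178 RPKM in GC line 2. Tagln, a smooth muscle actin-binding protein, had 46.6, 97.3 and 128 RPKM in d8 libraries, against 163, 154 and 145 RPKM in GC line 2. Both were lower in the d8 lines in all libraries and neither passed the test. Among 19 contractile genes 16 were negative, with a median of -0.41 and 1 call, Acta1 (0.182% of all members were called). Of the 19, 6 were lower and 2 higher at an unadjusted p of at most 0.05 (8.73% and 9.9% of all members). Whether cells of a fibroblast kind have a part in the differences of Col1a2 and Acta1 was not tested.

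The mitochondrial and BCL2 lists had medians closer to that of all members. Of 20 genes of mitochondrial shuttles, iron-sulfur clusters and protein import, 3 were called lower (Got2, Bola3 and Mipep), against 0.145% of all members. The median of the list was -0.059. The list was chosen with earlier results of these data known, so its calls are no test of the group. Mdh2, the malate dehydrogenase that works beside Got2 in the shuttle, had 229, 257 and 273 RPKM in d8 libraries (lowest, median and highest), against 265, 274 and 282 RPKM in GC line 2. Nfu1, an iron-sulfur scaffold, had 71.2, 80.2 and 88.3 RPKM in d8 libraries, against 66.1, 66.0 and 52.2 RPKM in GC line 2. In the BCL2 family Bak1 alone of 13 genes was called, against 0.182% of all members, and the median was 0.11. Bax, which acts in parallel to Bak1, had 262, 318 and 451 RPKM in d8 libraries, against 297, 270 and 234 RPKM in GC line 2, so the groups overlapped. Mcl1, an inhibitor of Bak1, had a log2 difference of 0.11 (limma adjusted p = 0.44).

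No gene passed the test in the lists that follow, and the counts at an unadjusted p of at most 0.05 are given instead, beside the 18.6% of all members that reached it. They were 4 of 20 CTCF and cohesin genes (median log2 difference -0.05), 5 of 21 DNA methylation genes (0.028), 11 of 24 imprinted genes (0.12), 4 of 15 glycolysis and hypoxia genes (0.076) and 4 of 14 proliferation genes (-0.031). Rad21, the cohesin subunit that closes the ring, had a log2 difference of -0.32 (limma adjusted p = 0.12), and Maz, a zinc finger protein found with CTCF, one of 0.28 (limma adjusted p = 0.17). Trim28, a corepressor that protects imprints, stood at -0.22, Dnmt3l at 0.04, Snrpn at 0.38, Aldoa at 0.09, Pkm at -0.11, Mcm5 at 0.01 and Ccne1 at 0.28. The groups overlapped for all of these but Maz. Gnas, an imprinted G protein gene, had 186, 213 and 267 RPKM in d8 libraries (lowest, median and highest), against 153, 117 and 130 RPKM in GC line 2, without overlap (limma adjusted p = 0.082).

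Germline genes had a median of 0.36 over 16 genes, 12 positive and 4 negative, and 6 were higher at an unadjusted p of at most 0.05 (9.9% of all members). Mael, a factor of the piRNA pathway, had a log2 difference of 0.98 (limma adjusted p = 0.16), and Ddx4, a germ cell helicase, one of 0.24 (limma adjusted p = 0.77). Integrated stress response genes had a median of 0.4 over 14 genes, 13 of them positive and 6 higher at an unadjusted p of at most 0.05, against the same 9.9%. Atf4, the transcription factor at the centre of that response, had 242, 294 and 326 RPKM in d8 libraries (lowest, median and highest), against 230, 221 and 209 RPKM in GC line 2. Its groups did not overlap (limma adjusted p = 0.13), while Psat1, an enzyme of serine synthesis, overlapped (0.19, limma adjusted p = 0.39).

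Markers of other lineages also gave no call. Trophoblast genes had a median of -0.52 over 8 genes. Of these, 1 was lower at an unadjusted p of at most 0.05 (8.73% of all members). Tpbpa and Prl3d1, markers of placental cells, were at 0. Krt8 and Krt18, simple epithelial keratins, stood at -0.86 and -0.77 with overlapping groups. Streak and mesoderm genes had a median of -0.13 over 6 genes, with T (Brachyury) at 0.24 and Snai1 at 0.14. T ranged from 0.426 to 14.1 RPKM in d8 libraries, and GC line 2 had 13.9, 2.13 and 1.44 RPKM, so it varied within lines. Neuroectoderm genes had a median of 0.24 over 6 genes, with Tubb3 at -0.53 and Nefl at 0.26, and the single 2-cell-like gene tested, Arg2, was at 0.19. In the contractile list Cnn3 stood at 0.52 (limma adjusted p = 0.071) and Tpm1 at -0.41 (limma adjusted p = 0.36).

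**Figure D5:**
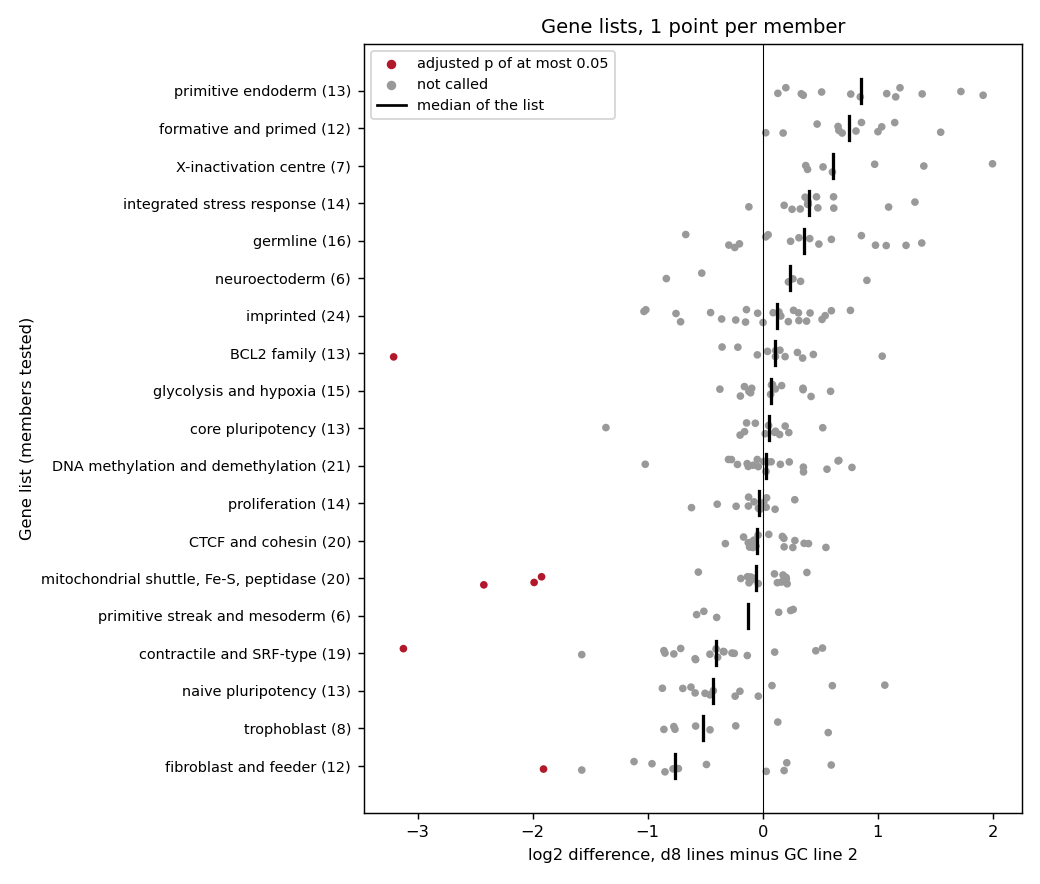
Each point is 1 tested gene of a list, with the log2 difference of the d8 lines minus GC line 2 on the x axis, the list and its number of tested genes on the y axis, and a black bar at the median. The called genes, in red, are Bak1, Acta1, Bola3, Got2, Mipep and Col1a2, and the medians run from -0.76 (fibroblast and feeder) to 0.85 (primitive endoderm).

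The authors' deposited table of their own comparison of del8 and control cells lists 1280 genes. It holds 14 of the 20 called genes, and 13 of these have the same sign, the exception being Arl14epl. The direction of that table was itself read from its match to these data, so the shared sign is largely set by that reading. Among the called genes the largest values in the authors' deposited table are those of Bak1 at -4.865, Bola3 at -3.906 and Ocrl at -3.586, while Got2 is at -1.856, Gfm1 at -2.255 and Ccdc136 at 1.579. Acta1, Rhox9, Col1a2, Aif1l, Ctsl and Ifi30 are not listed in it. Whether the samples of that table overlap those used here is not given in the sources used here, so it is not used as independent evidence.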

How the data were processed

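RNA-seq and CTCF ChIP-seq of mouse ES cells were used as deposited. The authors counted RPKM over exons of mm10 RefSeq transcripts with HOMER analyzeRepeats, 1 transcript a gene, with no strand option named, per the file headers. Libraries were made with a stranded kit and read as single-end reads, per the labels' protocols. HISAT2, SAMtools, deepTools and DESeq2 are also named, without versions, per the submitters' processing notes. Peaks were called by the authors with HOMER findPeaks on 1 library each, at a false discovery rate of 0.001 and 4-fold over the surrounding 10000 bp, per the file headers. Every score in the deposited peak lists is 1, so the lists give positions only. In the authors' deposited table, log2 fold changes, p-values and adjusted p-values come from a test that is not given in the sources used here. Its 5 per-sample columns match no sample and were not used. Its sign was read as del8 over control, since 400 of 420 listed genes with a d8 minus GC difference of at least 0.5 had the same sign.

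The d8 samples were averaged per line as log2(RPKM + 1), and so were those of GC line 2, then tested with limma 3.58.1 in R 4.3.3 (trend in the variance, two-sided, residual df 2, prior df 3.69). This scale understates changes of low genes. Samples of a line are not separate lines. The p-values rest on the spread between the 3 d8 lines, drawn toward a variance trend over all tested genes. That trend had the larger weight (prior df 3.69 against residual df 2). The genotype and line labels set the groups, and no batch is labelled. Low RPKM values came out as whole reads (100% at a tolerance of 0.1 read), which gave the depths. The script was tested on simulated data. RefSeq promoter windows are of build GRCm38.p6. The build of the peaks is not stated (mm10 and mm9 are both named) and was taken as mm10: in 57.1% of promoter windows with a peak centre the motif match lay within 30 bp of it. Genes with more than 1 annotated copy numbered 410, and none of the 20 called genes was among them.

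Named genes were Ctcf, all called members, the 8 highest and 8 lowest uncalled members whose libraries did not overlap and whose higher side reached 5 RPKM, and from each list the called members and the 2 most abundant. Of these, 2 genes are not reported here. The members and lists were chosen with earlier results of these data known.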

Additional observations from a re-analysis of the deposited data

Results flagged for a closer look

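The 8 d8 libraries of 73 named genes were examined for a single library far from the others, and 6 genes had one. For independent, normally distributed values chance gives about 1 in 20. The 8 libraries come from 3 lines, so that rate need not hold here. In d8 line 2 sample B the level was 2.88 RPKM for Arl14epl (others 0.797 to 1.59), 11.9 RPKM for Rhox6 (2.77 to 5.99) and 71.5 RPKM for Tubb3 (41.8 to 49.8), so 3 of the 6 fell in 1 library. In d8 line 2 sample A it was 27.9 RPKM for Mael (10.8 to 18.5). In d8 line 1 sample C it was 3.23 RPKM for Galnt6 (1.16 to 2.02) and 23.2 RPKM for Ctcf (30.8 to 37.2). Galnt6 and Arl14epl stayed below every GC line 2 library in these samples, and the cause was not tested.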

How the results depend on the processing

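The number of called members depended strongly on the setting, while no called gene changed direction under any of the 26 alternatives (518 values, 352 called, 166 not). The d8 and GC line 2 libraries of all 20 called genes did not overlap. Leaving out a line or library, or changing the filter or pseudocount, could therefore not reverse a direction, and those settings do not test it. Against 4 higher and 16 lower, the counts of higher and lower genes were 0 and 7 with a pseudocount of 0.25, 0 and 0 with no filter (2696 members at an unadjusted p of at most 0.05), 14 and 45 after rescaling, 0 and 7 with chromosomes 11 and 16 left out, 0 and 6 without the trend, and 8 and 24 for the log of line means. With a filter of 5 RPKM 10 genes were lower. With GC line 1 added they were 369 and 315, with single libraries and line as a random block 708 and 680, and with single libraries as independent 1291 and 1183. The cause was not tested, except that more samples in a fit leave more degrees of freedom. Leaving out 1 line or library gave 0 to 179 higher and 0 to 175 lower. The count was 0 without d8 line 2 or d8 line 3, 93 higher and 161 lower without sample A of GC line 2, 179 and 175 without d8 line 2 sample B, and 16 and 37 without d8 line 1 sample B. It was 8 and 25 without d8 line 1 sample A, 0 and 7 without d8 line 2 sample A, 0 and 6 without d8 line 2 sample C, and 0 and 10 without d8 line 1 sample C or d8 line 3 sample A.

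Members without overlap ranged from 964 to 1812 higher and from 994 to 1783 lower when 1 line or library was left out (1812 and 1783 without d8 line 2, and 1577 higher without sample A of GC line 2), and were 490 and 450 with GC line 1 added. The chromosome 11 median was -0.174 without a filter, 0.000805 after centring each chromosome and -0.401 with GC line 1 added. The chromosome 16 median was -0.0484, 0.00184 and -0.0996 under the same settings, -0.229 with the filter at 5 RPKM, and -0.241 to -0.17 without 1 line or library.

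Sample letters did not pair the samples, since same-letter deviations correlated by -0.155 to 0.3 over 8 pairs and other letters by -0.3 to 0.372 over 16. With the letter as a replicate block, on single libraries, 466 members were higher and 466 lower. Low counts limit Bola3, Col1a2 and Tstd3, whose lowest libraries held 4, 4 and 5 reads.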
